A study of Mus musculus with 50 samples.

Results

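The epithelium of the distal colon takes up sodium through a channel under steroid control, and water follows through membrane pores. Of the 56691 genes in a count table of mouse colon, 9 were chosen by symbol for this pathway. They are the sodium channel subunits Scnn1a, Scnn1b and Scnn1g, the aquaporins Aqp1, Aqp4 and Aqp8, the kinase Sgk1, the enzyme Hsd11b2 and the receptor Nr3c2. All 9 were among the 17928 genes with enough counts to be tested. RNA with poly(A) tails was sequenced from the colon of 50 mice whose genotype label is BALBC (the BALB/c strain), 1 library per mouse and 10 mice in each of 5 groups, and the series text narrows the tissue to distal colon. Sham mice carry that label alone. The other 40 mice received TNBS, trinitrobenzene sulfonic acid, a hapten that provokes colitis. Of these, 10 are labelled vehicle and 30 received A1007 at 10, 30 or 90 mpk (a unit given here as in the labels). According to the series text A1007 works by mouth, is enriched in the gut and activates AhR, the aryl hydrocarbon receptor, which on binding a ligand enters the nucleus and drives transcription. No group received A1007 without TNBS, so its effect outside colitis was not measured. The sources used here do not give age, sex, dosing schedule or time of sampling, and the labels place all mice in 1 batch.

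The epithelial sodium channel is built from the alpha, beta and gamma subunits that Scnn1a, Scnn1b and Scnn1g encode, and it is the rate-limiting step of electrogenic sodium uptake at the surface of the distal colon. Aldosterone acts through the mineralocorticoid receptor, the product of Nr3c2, and in rodent colon it is known to raise mainly the beta and gamma subunits. Sgk1 encodes a kinase induced by mineralocorticoids and glucocorticoids that keeps the channel in the cell membrane by restraining the ubiquitin ligase Nedd4l, and Hsd11b2 encodes the enzyme that inactivates corticosterone and so reserves the receptor for aldosterone. Aquaporins are water pores: Aqp8 belongs to surface colonocytes, Aqp4 to basolateral membranes of colonic epithelium and to glia, and Aqp1 to blood vessel endothelium.

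Upstream sequences are shown for the 3 genes that were lowest in A1007 mice relative to vehicle and for the receptor gene, whose levels separated all sham mice from all TNBS mice. They come from RefSeq (build GRCm38.p6), and each is the 250 bases before a start site, 5′ to 3′ on the plus strand. Windows were taken for 6 of the 9 genes, at 11 start sites. The other genes have no window here, which does not show that RefSeq lacks them. Capitals mark the steroid receptor hexamer (AGAACA on either strand), a palindromic steroid receptor element that overlaps hexamers, and the core that AhR recognises (GCGTG on either strand).
Sgk1, chr10:21993640-21993889: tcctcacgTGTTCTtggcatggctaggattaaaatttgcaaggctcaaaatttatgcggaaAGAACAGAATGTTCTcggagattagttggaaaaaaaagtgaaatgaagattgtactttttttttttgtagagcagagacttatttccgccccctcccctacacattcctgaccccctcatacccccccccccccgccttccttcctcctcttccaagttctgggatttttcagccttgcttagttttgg
Scnn1g, chr7:121734229-121734478: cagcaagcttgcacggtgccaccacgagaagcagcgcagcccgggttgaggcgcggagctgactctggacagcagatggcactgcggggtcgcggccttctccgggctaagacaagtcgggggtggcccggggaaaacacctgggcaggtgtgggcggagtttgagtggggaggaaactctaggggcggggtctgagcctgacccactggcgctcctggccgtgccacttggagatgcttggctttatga
Scnn1b, chr7:121864788-121865037: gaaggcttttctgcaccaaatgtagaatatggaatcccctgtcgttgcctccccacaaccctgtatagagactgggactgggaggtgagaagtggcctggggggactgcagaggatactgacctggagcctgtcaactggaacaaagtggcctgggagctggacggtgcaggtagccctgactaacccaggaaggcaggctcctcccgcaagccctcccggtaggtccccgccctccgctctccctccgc
Nr3c2, chr8:76902080-76902329: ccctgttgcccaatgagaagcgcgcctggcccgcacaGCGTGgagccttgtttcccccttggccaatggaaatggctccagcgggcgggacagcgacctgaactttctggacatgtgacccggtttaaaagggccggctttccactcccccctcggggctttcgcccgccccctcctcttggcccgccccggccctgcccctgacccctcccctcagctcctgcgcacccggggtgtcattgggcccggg

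The Sgk1 window held 3 hexamers, 242, 189 and 180 bases before the start. The latter pair forms the palindromic element, 188 bases before the start. Among all 32851 promoter windows of this length, 16.1% held a hexamer and 0.387% held the element. In the windows of Scnn1g and Scnn1b none of these motifs was found. Nr3c2 had 1 AhR core 213 bases before its start and Aqp8 had 1, 120 bases before its start, against 28.2% of all windows with at least 1. Sgk1 has 6 start sites in the table, and the window shown is the only one of them with the element. The 5 others held 2 hexamers and 2 AhR cores between them. The shares of all windows are per single window and make no allowance for a gene with several start sites. A match describes letters only: binding was not measured here, and a window without a match says nothing about the factor.

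Libraries held 14373337 to 20446967 counts. The summed level of 10 epithelial markers had a median between 10140 and 11930 CPM (counts relative to the library total) in every group. These markers are shared by all epithelial cells, so they cannot tell colon from other epithelium. Distal Hox genes, which mark position along the gut, summed to 69.76 and 77.92 CPM in 10 mpk replicates 8 and 3 and to between 121.5 and 529.2 CPM in the other 48 mice. Another 6 libraries carried over 900 CPM of 15 pancreatic acinar genes, a limit chosen after seeing the data: vehicle replicates 2, 5, 6 and 9 (966.1 to 58620 CPM), 10 mpk replicate 7 and 30 mpk replicate 2. The remaining 44 libraries had at most 766.7 CPM. Those 4 vehicle mice also carried 308.9 to 4543 CPM of 10 neutrophil markers, against 31.3 to 805.8 CPM in the other 6 vehicle mice. Calls of the 9 genes against sham or vehicle, and relations between mice, that change without the acinar-rich libraries are given with and without them. Values that were not called also shift in those fits, and not all of these are given. In bulk tissue, fewer cells of a type and less RNA per cell cannot be told apart.

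The 9 genes were compared in vehicle against sham and in A1007 against vehicle, and both sets of comparisons use the same vehicle mice. In vehicle mice Scnn1a, Aqp4, Aqp8 and Nr3c2 were lower than in sham mice (edgeR quasi-likelihood test, Benjamini-Hochberg adjusted p under 0.05 over all genes tested), which is 4 of 9 genes where 31.7% of all genes were called and 13.5% were called lower. Relative to vehicle, A1007 mice had lower Sgk1 at every dose, lower Scnn1g at 30 and 90 mpk and lower Scnn1b at 30 mpk. That was 1 of 9 genes at 10 mpk, where 5.75% of all genes were called and 2.91% were lower. It was 3 of 9 at 30 mpk, where 31.4% were called and 17.9% were lower, and 2 of 9 at 90 mpk, where 18.2% were called and 11.1% were lower. Without the 6 acinar-rich libraries the counts were 5 of 9 in vehicle against sham and 0, 1 and 0 of 9 at 10, 30 and 90 mpk against vehicle. Most calls against vehicle were thus lost in fits that kept only 6 vehicle mice. Shares of all genes called in those fits are not given here, so the loss cannot be read as particular to the 9 genes. Without the pair of 10 mpk libraries low in distal Hox genes, the count at 10 mpk was also 0. None of the 9 was called higher than sham in vehicle mice (18.2% of all genes) or higher than vehicle at any dose (2.83%, 13.5% and 7.12% of all genes at 10, 30 and 90 mpk). The median log2 fold change of the 9 genes was -0.57 in vehicle against sham, where the median of all genes tested was 0.02. Against vehicle it was -0.34 at 10 mpk, -0.09 at 30 mpk and -0.02 at 90 mpk, with medians of all genes of -0.00441, -0.02 and -0.01.

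**Figure D1:**
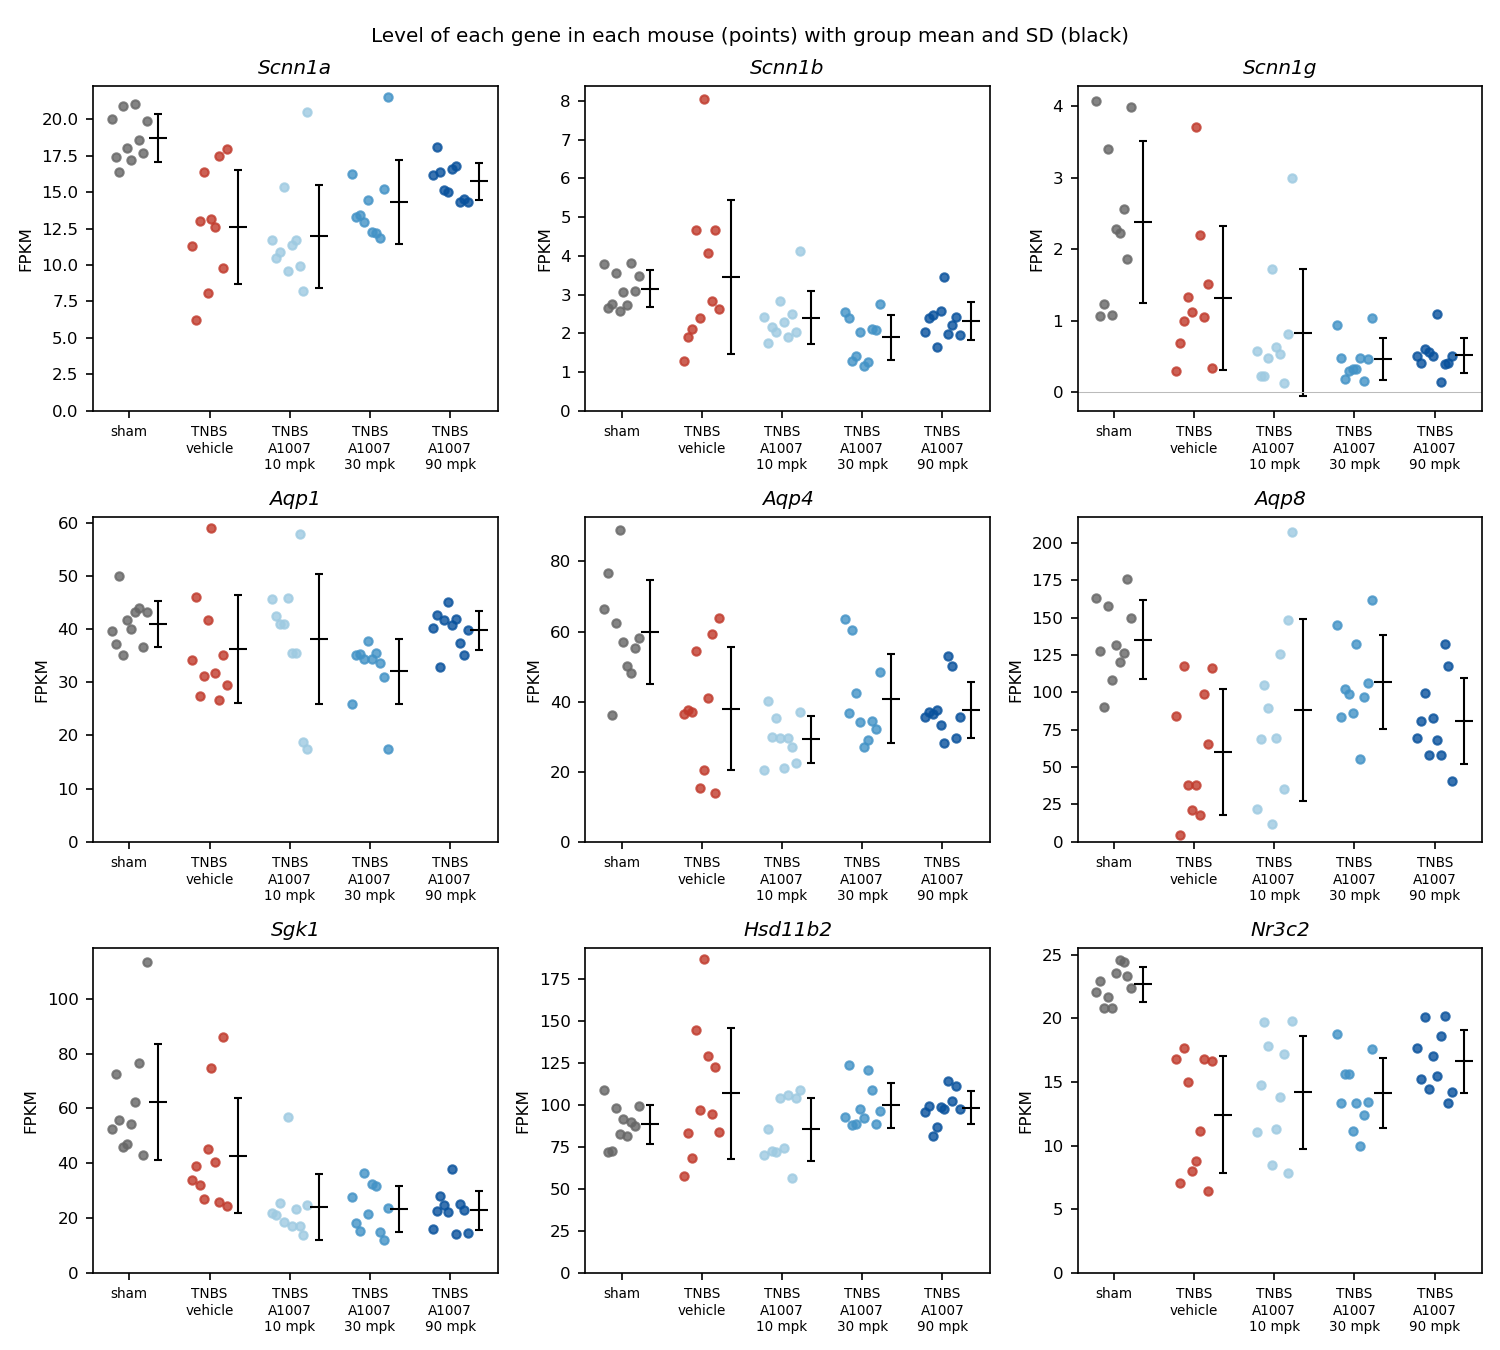
Level of each gene in FPKM (fragments relative to exon length and library total, as deposited) in every mouse, with 1 point per mouse spread sideways by replicate number and the group mean and SD (n = 10) in black at the right of each group. The Nr3c2 panel shows all 40 TNBS mice below the lowest sham mouse, and the Sgk1 panel shows the 30 and 90 mpk mice below every sham mouse.

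Compared with sham mice, most of the 9 genes were lower at every dose of A1007. At 10 mpk 6 of 9 genes were lower, where 36% of all genes were called, 14.7% lower and 21.3% higher. At 30 mpk 7 were lower and Hsd11b2 was higher, where 59% of all genes were called, 28.7% lower and 30.3% higher. At 90 mpk 7 were lower, where 45.2% were called, 21.9% lower and 23.4% higher. Without the acinar-rich libraries the counts were 5 in vehicle mice, 5 at 10 mpk and 7 at 30 mpk, so vehicle and 10 mpk mice then had the same number called, and no 90 mpk library was acinar-rich. Those fits held fewer mice, and shares of all genes called in them are not given here. Scnn1a, Scnn1b, Scnn1g, Aqp4, Sgk1 and Nr3c2 were called lower than sham at all 3 doses. The comparisons with sham share the 10 sham mice, and those with vehicle share the 10 vehicle mice, so they are not independent of each other. Between doses none of the 9 genes was called in edgeR, with 1 of 9 at an unadjusted p under 0.05 in each of 30 against 10 mpk (Aqp4, 0.52 on the log2 scale, adjusted p = 0.155) and 90 against 10 mpk (Scnn1a, 0.37, adjusted p = 0.32) and 0 of 9 in 90 against 30 mpk. The log2 fold changes of the 9 genes ran from -0.81 (Scnn1g) to 0.52 (Aqp4) at 30 against 10 mpk, from -0.73 (Scnn1g) to 0.37 (Scnn1a) at 90 against 10 mpk, and from -0.46 (Aqp8) to 0.26 (Aqp1) at 90 against 30 mpk. Of all genes 2.01% were called between 30 and 10 mpk (0.469% higher, 1.55% lower), 0.1% between 90 and 10 mpk (0.0335% higher, 0.0669% lower) and 0.368% between 90 and 30 mpk (0.0948% higher, 0.273% lower).

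**Figure D2:**
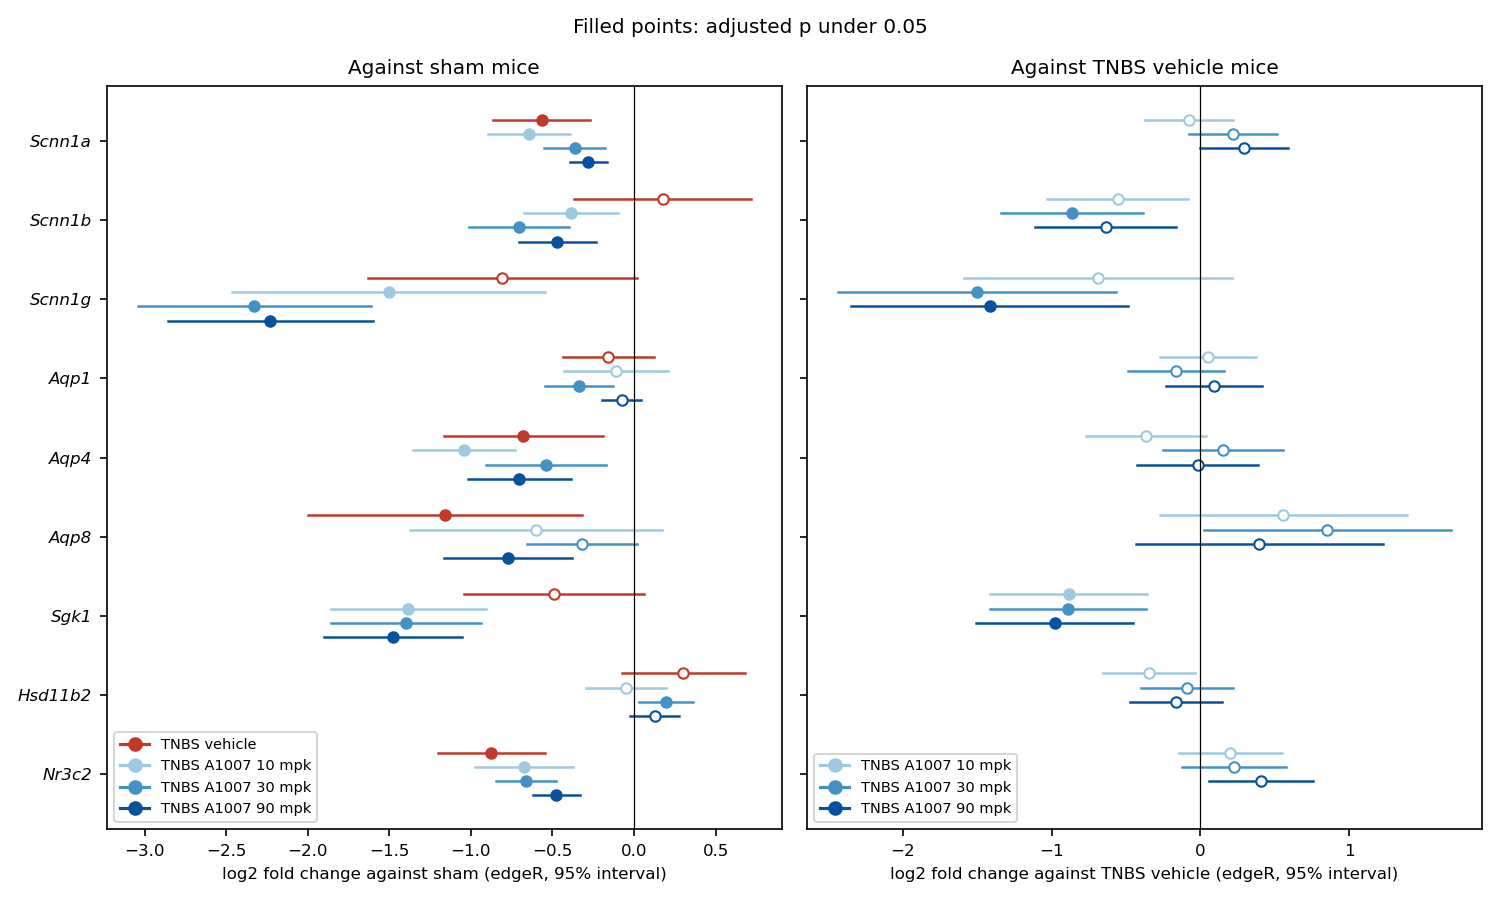
Log2 fold change of each gene with its 95% interval (edgeR), against sham in one panel and against TNBS vehicle in the other, coloured by group, with filled points where the adjusted p is under 0.05. Scnn1g and Sgk1 lie farthest below 0 against sham in the 30 and 90 mpk mice. Hsd11b2 lies between -0.34 (10 mpk against vehicle) and 0.30 (vehicle against sham).

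Scnn1a (chr6:125297622-125321906, GRCm39) encodes the alpha subunit, without which no channel forms. In sham mice it ran from 16.39 to 21.08 FPKM with a median of 18.33, and in vehicle mice from 6.26 to 17.99 with a median of 12.82. In A1007 mice the lowest, median and highest levels were 8.2, 11.12 and 20.52 FPKM at 10 mpk, 11.87, 13.36 and 21.53 at 30 mpk and 14.3, 15.68 and 18.13 at 90 mpk. Vehicle overlapped sham, but 7 of 10 vehicle mice lay below the lowest sham mouse, as did 9 mice at 10 mpk, 9 at 30 mpk and 6 at 90 mpk. The vehicle mean of 12.62 ± 3.92 FPKM (SD, n = 10) against 18.73 ± 1.64 gave a log2 fold change of -0.57 (SE 0.14, adjusted p = 0.00505, edgeR). Scnn1a was lower than sham by a log2 fold change of -0.64 at 10 mpk (adjusted p = 0.000474), -0.36 at 30 mpk (adjusted p = 0.00159) and -0.28 at 90 mpk (adjusted p = 0.000251). None of these doses was called against vehicle, where the log2 fold changes were -0.08, 0.22 and 0.29.

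Scnn1b and Scnn1g both lie on chromosome 7 (chr7:121464261-121517737 and chr7:121333702-121367698, GRCm39) and encode the beta and gamma subunits. Scnn1b ran from 2.58 to 3.82 FPKM in sham mice (median 3.08) and over a wider range in vehicle mice, from 1.28 to 8.04 (median 2.73). At 10, 30 and 90 mpk its medians were 2.215, 2.05 and 2.3 FPKM, with ranges of 1.75 to 4.13, 1.16 to 2.75 and 1.65 to 3.45. Vehicle mice lay on both sides of sham, with 4 above its highest and 4 below its lowest mouse. By contrast 8, 9 and 9 of 10 mice at 10, 30 and 90 mpk lay below the lowest sham mouse. Against sham the log2 fold change of Scnn1b was 0.17 in vehicle mice (adjusted p = 0.632), -0.39 at 10 mpk (adjusted p = 0.0338), -0.71 at 30 mpk (adjusted p = 0.0003) and -0.47 at 90 mpk (adjusted p = 0.00183). Relative to vehicle, Scnn1b fell at 30 mpk by 0.86 on the log2 scale (SE 0.24, adjusted p = 0.00543), and 90 mpk gave -0.64 (adjusted p = 0.0514) and 10 mpk -0.56 (adjusted p = 0.144). Cog7, a Golgi gene on the opposite strand, shares 39152 bases of span with Scnn1b, and reads there cannot be assigned with certainty, since no source used here gives the strand setting of the counting. Cog7 itself had log2 fold changes of -0.15, -0.12 and -0.16 against vehicle at 10, 30 and 90 mpk, none of them called, and at the 3 doses its log2 fold changes against sham lay between -0.20 and -0.17 (adjusted p of 0.0279 or less). Without the acinar-rich libraries Scnn1b at 10 mpk lost its call against sham (-0.35, adjusted p = 0.0612).

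Scnn1g had the largest differences of the 9 genes from sham in the A1007 groups. It ran from 1.06 to 4.08 FPKM in sham mice (median 2.26) and from 0.29 to 3.71 in vehicle mice (median 1.085). At 10 mpk its lowest, median and highest levels were 0.12, 0.555 and 3 FPKM, at 30 mpk 0.15, 0.39 and 1.04, and at 90 mpk 0.14, 0.51 and 1.1. All 10 mice at 30 mpk and 9 of 10 at 90 mpk lay below the lowest sham mouse, as did 8 at 10 mpk and 5 vehicle mice. Of all genes tested 4.81% lay wholly below the sham range at 30 mpk. Counts behind these low levels ran from 6 to 217 reads per mouse. The log2 fold change against sham was -2.33 at 30 mpk (SE 0.34, adjusted p = 8.79e-06), -2.23 at 90 mpk (SE 0.30, adjusted p = 1.14e-05) and -1.50 at 10 mpk (SE 0.46, adjusted p = 0.016). In vehicle mice it was -0.81 (95% interval -1.63 to 0.02, adjusted p = 0.123). Relative to vehicle, Scnn1g fell by 1.50 at 30 mpk (SE 0.46, adjusted p = 0.0128) and by 1.42 at 90 mpk (SE 0.46, adjusted p = 0.0268), and 10 mpk gave -0.69 (adjusted p = 0.362). Alternatives of scaling, test, model and libraries kept the call against sham at 30 mpk in 13 of 13 cases. Values ran from -3.26 to -1.16, the smallest on the log2(FPKM + 1) scale that compresses low levels. The calls of Scnn1g against vehicle were kept in 12 of 14 alternatives at 30 mpk and in 7 of 14 at 90 mpk.

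Set against the alpha subunit, the gamma subunit was scarcest at 30 and 90 mpk. The ratio of Scnn1g to Scnn1a, both in FPKM and so per length of exon, had a median of 0.119 in sham mice, 0.0956 in vehicle mice and 0.0474, 0.0282 and 0.0327 at 10, 30 and 90 mpk. For Scnn1b to Scnn1a the medians were 0.173 in sham, 0.29 in vehicle and 0.201, 0.132 and 0.143 at 10, 30 and 90 mpk. These ratios are descriptions with no test.

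Without the 6 libraries high in acinar genes, the calls of Scnn1g against vehicle were lost: the log2 fold change was -1.09 at 30 mpk (adjusted p = 0.109) and -0.998 at 90 mpk (adjusted p = 0.228). Scnn1b stayed called at 30 mpk, at -0.61 (adjusted p = 0.0327), and vehicle mice were then called lower than sham for Scnn1g, at -1.25 (adjusted p = 0.0496). With all libraries in, a rank-sum test adjusted over all genes ended the calls against vehicle of Scnn1b at 30 mpk (adjusted p = 0.142) and of Scnn1g at 30 and 90 mpk (adjusted p = 0.0695 and 0.13). A single mouse, vehicle replicate 6, held the highest vehicle level of Scnn1g, Scnn1b, Aqp1 and Hsd11b2 and 58620 CPM of acinar genes. Leaving out that mouse alone moved Scnn1g to -1.18 against sham (adjusted p = 0.0165) and ended its call at 90 mpk against vehicle (-1.06, adjusted p = 0.0917), as did leaving out vehicle replicate 7 (-1.31, adjusted p = 0.0512). The comparisons of Scnn1g with sham kept their calls without the acinar-rich libraries, at -1.45 for 10 mpk (adjusted p = 0.0289) and -2.33 for 30 mpk (adjusted p = 2.29e-05).

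Among the aquaporins, Aqp8 (chr7:123061514-123067227, GRCm39), the water pore of surface colonocytes, was the most abundant gene of the 9 in sham mice. It ran from 89.88 to 175.62 FPKM in sham mice (median 129.9) and from 4.38 to 117.5 in vehicle mice (median 51.9). At 10 mpk the lowest, median and highest levels were 11.73, 79.74 and 207.2 FPKM, at 30 mpk 55.39, 100.4 and 161.55, and at 90 mpk 40.56, 74.97 and 132.53. Below the lowest sham mouse lay 7 of 10 vehicle mice, 6 at 10 mpk, 3 at 30 mpk and 7 at 90 mpk. Aqp8 fell in vehicle mice by 1.16 on the log2 scale against sham (SE 0.40, adjusted p = 0.0342). At 90 mpk it was -0.77 against sham (SE 0.19, adjusted p = 0.00264), whereas 30 mpk gave -0.32 (adjusted p = 0.098) and 10 mpk gave -0.60 (adjusted p = 0.206). Against vehicle none of the doses was called, with log2 fold changes of 0.56, 0.85 and 0.39 at 10, 30 and 90 mpk and 95% intervals of -0.27 to 1.39, 0.02 to 1.68 and -0.43 to 1.22. At 30 mpk Aqp8 passed the test against vehicle in 6 of 14 alternatives, always as higher, with values from 0.52 to 1.34.

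Aqp4 (chr18:15522553-15544039, GRCm39), a water pore of basolateral membranes and glia, had a mean of 59.92 ± 14.9 FPKM in sham and 38 ± 17.6 in vehicle mice (SD, n = 10). Its range was 36.12 to 88.94 FPKM in sham (median 57.51) and 14.03 to 63.99 in vehicle (median 37.28). The medians at 10, 30 and 90 mpk were 29.63, 35.61 and 35.96 FPKM, and the ranges 20.34 to 40.22, 27.05 to 63.68 and 28.31 to 53.15. The groups overlapped: 3 vehicle mice and 8, 5 and 5 mice at 10, 30 and 90 mpk lay below the lowest sham mouse. The log2 fold change against sham was -0.68 in vehicle mice (SE 0.23, adjusted p = 0.0324), -1.04 at 10 mpk (adjusted p = 2.72e-05), -0.54 at 30 mpk (adjusted p = 0.013) and -0.70 at 90 mpk (adjusted p = 0.000929). Against vehicle it was -0.37, 0.15 and -0.02, none called. Markers of enteric glia, another source of Aqp4, were not lower as a list, with 2 of 7 tested genes higher and 2 lower in vehicle against sham and 3 or 4 of 7 higher at each dose against sham. Their summed level ran from 33.25 to 58.51 CPM in sham, 31.78 to 56.71 in vehicle and 30.09 to 68.61 over the A1007 groups, with none of the 7 at 0 in any mouse. Their part in the Aqp4 levels was not tested.

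Aqp1 (chr6:55313417-55325540, GRCm39), the water pore of endothelium, was called in 1 comparison only. It had medians of 40.78 FPKM in sham (range 35.05 to 49.89) and 32.94 in vehicle (26.73 to 59). At 10, 30 and 90 mpk the medians were 40.96 (17.51 to 57.84), 34.33 (17.49 to 37.71) and 40.48 FPKM (32.79 to 45.12). The groups overlapped, with 6 vehicle mice and 6 mice at 30 mpk below the lowest sham mouse. That was 30 mpk against sham, at -0.34 (SE 0.10, adjusted p = 0.00602), and vehicle against sham gave -0.16 (adjusted p = 0.379). Against sham Aqp1 was -0.11 at 10 mpk and -0.08 at 90 mpk, and against vehicle it was 0.05, -0.16 and 0.09 at 10, 30 and 90 mpk, none called. Blood endothelium markers went the other way: 10 of 12 tested genes were higher in vehicle than in sham (median log2 fold change 0.61), and 12, 10 and 11 of 12 were higher than sham at 10, 30 and 90 mpk. Their summed level ran from 216.7 to 383.1 CPM in sham, 371.5 to 612 in vehicle and 322.2 to 787.6 over the A1007 groups, with none of the 12 at 0 in any mouse. Their part in the Aqp1 levels was not tested.

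The aquaporin results in vehicle mice depended on the acinar-rich libraries. Without them the log2 fold change against sham was -0.82 for Aqp8 (adjusted p = 0.0833) and -0.34 for Aqp4 (adjusted p = 0.205), so both calls were lost, and Aqp1 was called at -0.48 (adjusted p = 6.42e-05). Values against vehicle shifted too, with none called. At 10, 30 and 90 mpk they became 0.14, 0.52 and 0.04 for Aqp8. For Aqp4 they became -0.71, -0.19 and -0.37, and for Aqp1 0.37, 0.12 and 0.40. The 4 vehicle mice concerned held 14.03 to 37.46 FPKM of Aqp4 and 35.11 to 59 of Aqp1, against 36.49 to 63.99 and 26.73 to 34.18 in the other 6. When each single library was left out in turn, Aqp4 was called in 15 and Aqp8 in 13 of 20 fits, with adjusted p of at most 0.0611 and 0.0556. The calls were lost without sham replicates 2 or 5 or vehicle replicates 2, 6 or 9 for Aqp4, and without sham replicates 4, 9 or 10 or vehicle replicates 4, 5, 6 or 7 for Aqp8.

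Nr3c2 (chr8:77626070-77971641, GRCm39), the mineralocorticoid receptor gene, was the gene of the 9 whose TNBS groups were all separate from sham. Its range was 20.8 to 24.62 FPKM in sham mice (median 22.68) and 6.43 to 17.66 in vehicle mice (median 13.06). At 10 mpk it ran from 7.83 to 19.76 FPKM (median 14.32), at 30 mpk from 9.96 to 18.73 (median 13.38) and at 90 mpk from 13.31 to 20.2 (median 16.26). No TNBS mouse reached the lowest sham mouse in any of the 4 groups. Of all 17928 genes tested, 13 (0.0725%) had all 40 TNBS mice below every sham mouse, and group by group the share wholly below sham was 1.08% in vehicle mice and 0.725%, 4.81% and 1.43% at 10, 30 and 90 mpk. The vehicle mean of 12.42 ± 4.59 FPKM against 22.67 ± 1.36 (SD, n = 10) gave a log2 fold change of -0.88 (SE 0.16, adjusted p = 0.000291). Against sham the doses gave -0.67 (adjusted p = 0.00135), -0.66 (adjusted p = 1.44e-06) and -0.48 (adjusted p = 1.62e-05) at 10, 30 and 90 mpk. Against vehicle they gave 0.20, 0.23 and 0.41, and the adjusted p at 90 mpk was 0.0932. The 4 vehicle mice rich in acinar genes held the 4 lowest vehicle levels, 6.43 to 8.8 FPKM against 11.15 to 17.66 in the other 6. Without the acinar-rich libraries Nr3c2 remained lower in vehicle than in sham, at -0.57 (adjusted p = 2.44e-05).

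Sgk1 (chr10:21758083-21875802, GRCm39), the steroid-induced kinase, ran from 43.06 to 113.45 FPKM in sham mice (median 55.01) and from 24.25 to 86.07 in vehicle mice (median 36.48). Its medians at 10, 30 and 90 mpk were 21.46, 22.56 and 22.75 FPKM, with ranges of 13.62 to 56.91, 11.92 to 36.43 and 14.3 to 37.82. Every mouse at 30 and 90 mpk and 9 of 10 at 10 mpk lay below the lowest sham mouse, the exception being 10 mpk replicate 5. Of all genes tested 4.81% lay wholly below the sham range at 30 mpk and 1.43% at 90 mpk. Against the lowest vehicle mouse, 7, 6 and 6 of 10 mice were lower at 10, 30 and 90 mpk. The log2 fold change against sham was -1.38 at 10 mpk (adjusted p = 0.000145), -1.40 at 30 mpk (adjusted p = 2.44e-05) and -1.48 at 90 mpk (adjusted p = 2.01e-05), and in vehicle mice it was -0.49 (95% interval -1.04 to 0.06, adjusted p = 0.159). Relative to vehicle, Sgk1 fell by 0.89 at 10 mpk (SE 0.26, adjusted p = 0.0377), by 0.89 at 30 mpk (SE 0.26, adjusted p = 0.00912) and by 0.98 at 90 mpk (SE 0.26, adjusted p = 0.00721). The 3 doses lay within 0.09 of each other on the log2 scale, with 95% intervals of their differences inside -0.61 and 0.52.

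The calls of Sgk1 against vehicle were lost without the acinar-rich libraries, and those against sham were kept. The 4 vehicle mice concerned held 39.03 to 86.07 FPKM of Sgk1 and the other 6 held 24.25 to 40.34. Without the 6 libraries the log2 fold change against vehicle was -0.32 at 10 mpk (adjusted p = 0.485), -0.31 at 30 mpk (adjusted p = 0.381) and -0.42 at 90 mpk (adjusted p = 0.309), and none was called. Vehicle against sham then became -1.07 (adjusted p = 0.00157), and 10 and 30 mpk against sham stayed at -1.38 and -1.37. A rank-sum test on all libraries, adjusted over all genes, kept the call against vehicle at 90 mpk (adjusted p = 0.0216) and ended those at 10 and 30 mpk (adjusted p = 0.165 and 0.0504). At 10 mpk the call against vehicle was also lost in 10 of 20 fits that left out 1 library (adjusted p up to 0.0818), namely without 10 mpk replicates 1, 2, 4, 6, 7, 8 or 9 or vehicle replicates 5, 6 or 9.

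Hsd11b2 (chr8:106245387-106250620, GRCm39), which protects the receptor from corticosterone, was not called lower in any comparison between groups. Its medians were 88.54 FPKM in sham (range 72.04 to 109.14), 95.76 in vehicle (57.38 to 186.91) and 79.89 (56.35 to 108.61), 94.47 (88.17 to 123.5) and 97.95 (81.22 to 114.01) at 10, 30 and 90 mpk. The groups overlapped in every comparison. One comparison was called: at 30 mpk Hsd11b2 was higher than sham by a log2 fold change of 0.19 (SE 0.08, adjusted p = 0.0396), which became 0.15 (adjusted p = 0.0904) without 30 mpk replicate 2 and was called in 4 of 13 alternatives. Vehicle against sham gave 0.30 (95% interval -0.08 to 0.68, adjusted p = 0.209). Against sham Hsd11b2 was -0.05 at 10 mpk and 0.13 at 90 mpk, and against vehicle it was -0.34, -0.09 and -0.17 at 10, 30 and 90 mpk, none called.

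Levels per exon length put the channel's beta and gamma subunits last in every group. In sham mice Aqp8 was highest, followed by Hsd11b2, Aqp4, Sgk1, Aqp1, Nr3c2, Scnn1a, Scnn1b and Scnn1g. Neighbours in that order overlapped in range except Aqp1 with Nr3c2 and Scnn1a with Scnn1b, and Aqp4 exceeded Sgk1 in only 6 of 10 sham mice. In vehicle mice Hsd11b2 was highest by median, above Aqp8 in 6 of 10 mice. Nr3c2 exceeded Scnn1a in 10 of 10 sham mice and in 3 of 10 vehicle mice. Scnn1b exceeded Scnn1g in 8 of 10 sham mice and in all 10 mice of each TNBS group.

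Between mice of the same group some of the 9 genes varied together. Relations were computed on log2(CPM + 1) over 50 mice after the group means were taken off, for 36 pairs, with permutation within groups and adjusted p over the pairs. Scnn1b and Scnn1g had Pearson r = 0.72 (Spearman rho = 0.62, permutation p = 1e-05, the smallest that 100000 permutations can give, adjusted p = 0.00036), r = 0.64 without the 2 mice farthest from the median of Scnn1b, and between 0.58 and 0.87 within each of the 5 groups. Hsd11b2 went with both, at r = 0.67 with Scnn1b (rho = 0.40, permutation p = 6e-05, adjusted p = 0.00042) and 0.64 with Scnn1g (rho = 0.39, permutation p = 2e-05, adjusted p = 0.00036). Within groups these relations of Hsd11b2 were strongest in sham and vehicle (r from 0.83 to 0.97). At 10 mpk r was 0.23 with Scnn1b and 0.72 with Scnn1g, and at 30 and 90 mpk both ran between -0.57 and 0.15. Over the 44 mice that remain without the acinar-rich libraries, Scnn1b and Scnn1g kept r = 0.68 (rho = 0.54, permutation p = 1e-05, adjusted p = 0.00036), and Hsd11b2 had r = 0.57 with Scnn1b and 0.59 with Scnn1g (adjusted permutation p = 0.0084 and 0.00414). The rank correlations of Hsd11b2 did not pass the adjustment over these mice (rho = 0.34 and 0.27, adjusted permutation p = 0.222 and 0.293).

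Nr3c2 went with Scnn1a (r = 0.67, rho = 0.43, permutation p = 5e-05, adjusted p = 0.00042), Aqp4 (r = 0.65, rho = 0.39, permutation p = 5e-05, adjusted p = 0.00042) and Aqp8 (r = 0.56, rho = 0.47, permutation p = 0.00263, adjusted p = 0.0105). Without the 2 farthest mice r was 0.60, 0.57 and 0.43. Within vehicle mice r was 0.76, 0.77 and 0.67, and within sham mice it was 0.22, -0.20 and 0.29. The 4 acinar-rich vehicle mice hold the lowest Nr3c2 levels of that group, and in the other 6 vehicle mice r was 0.23, 0.13 and 0.95. Over the 44 mice without acinar-rich libraries r was 0.53, 0.49 and 0.52 (adjusted permutation p = 0.0238, 0.0084 and 0.0372). The rank correlations did not pass there (rho = 0.34, 0.25 and 0.44, adjusted permutation p = 0.222, 0.353 and 0.0822). Among the partners of Nr3c2, r was then 0.44 for Scnn1a with Aqp4, 0.36 for Scnn1a with Aqp8 and 0.22 for Aqp4 with Aqp8 (adjusted permutation p = 0.0238, 0.181 and 0.309). Scnn1a also went with Scnn1b (r = 0.53, adjusted permutation p = 0.0084, and 0.251 by rank). Aqp1 and Aqp8 ran opposite to each other, at r = -0.62 (rho = -0.70, permutation p = 7e-05, adjusted p = 0.00042), r = -0.56 without the 2 farthest mice and negative in 5 of 5 groups, from -0.50 to -0.76. It was -0.63 over the 44 mice (adjusted permutation p = 0.0084). Sgk1 had its strongest relation with Scnn1g (r = 0.46, rho = 0.35, permutation p = 0.00257, adjusted p = 0.0105, 0.42 without the 2 farthest mice), positive in 5 of 5 groups, but its rank correlation did not pass the adjustment (adjusted p = 0.0768), and over the 44 mice r was 0.39 (adjusted permutation p = 0.0508).

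**Figure D3:**
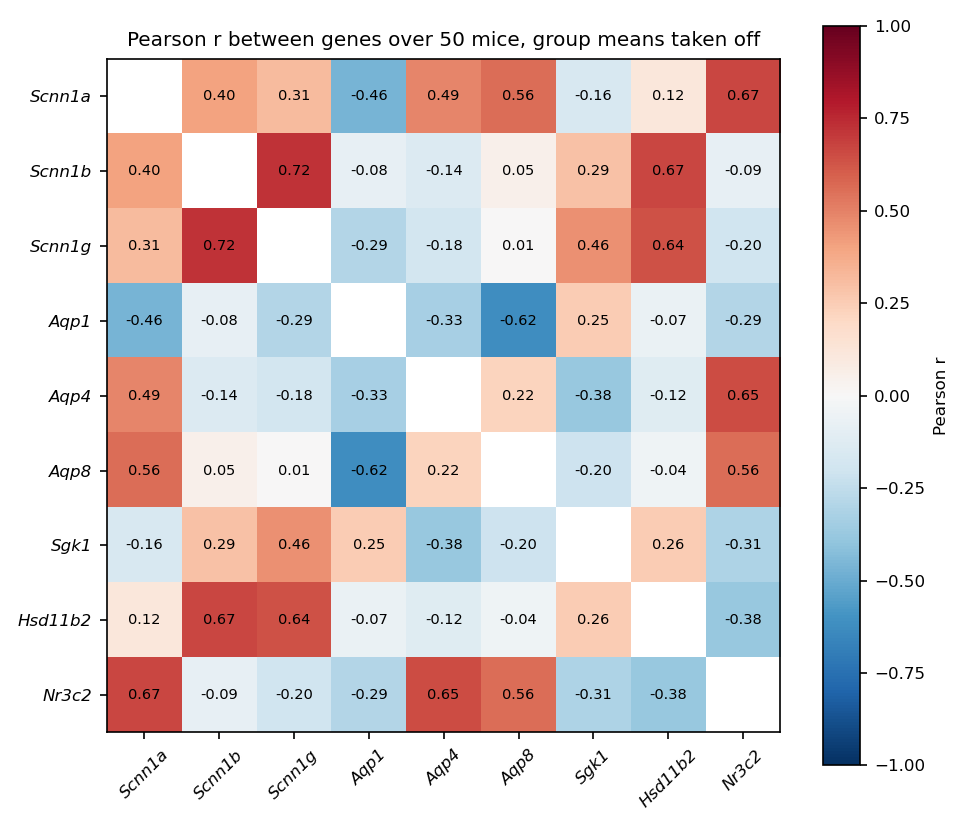
Pearson r between each pair of the 9 genes over 50 mice, computed on log2(CPM + 1) with group means taken off; red is positive, blue is negative and the diagonal is left blank. Scnn1b, Scnn1g and Hsd11b2 are positive with each other (0.64 to 0.72), as is Nr3c2 with Scnn1a, Aqp4 and Aqp8 (0.56 to 0.67). Aqp1 with Aqp8 is the most negative pair.

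The genes most like each member were found by the same measure among 13842 genes with a mean of at least 1 FPKM, as a description with no test. For Scnn1b they were Zg16 (r = 0.79), a goblet cell lectin, then Scnn1g and Hsd11b2, and for Scnn1g they were Srd5a2 (r = 0.73), a steroid reductase, Anxa8 and Scnn1b. Hsd11b2 had Zg16 (r = 0.71), Fxyd4 (r = 0.70), a regulator of the sodium pump, and Scnn1b. Sgk1 had Vmp1 (r = 0.66), Per1 (r = 0.64) and Tsc22d3 (r = 0.64), the latter pair being known glucocorticoid-induced genes. The closest of all was Slc22a23 with Nr3c2 (r = 0.94), followed for Nr3c2 by the epithelial transcription factor Hnf4a (r = 0.93) and Sort1 (r = 0.92). Aqp8 had Cables1 (r = 0.86), the surface anion exchanger Slc26a3 (r = 0.83) and Espn. For Aqp4 they were Map7, Mlec and Slc6a14 (r = 0.78 to 0.80), for Aqp1 Rnase4, Ednrb and Kcnq1 (r = 0.71 to 0.78) and for Scnn1a Trak1, Marveld3 and Fam8a1 (r = 0.81 to 0.83).

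Marker levels of other tissue features moved with some of the genes. These 27 relations, with 3 marker lists chosen after seeing the data, used the same method. The summed level of distal Hox genes went with Scnn1g (r = 0.57, rho = 0.55, permutation p = 0.00094, adjusted p = 0.0247, 0.53 without the 2 farthest mice) and Hsd11b2 (r = 0.45, rho = 0.39, permutation p = 0.00306, adjusted p = 0.0247), and in sham mice alone r was 0.76 and 0.77. For Scnn1a it was r = 0.44 (rho = 0.48, permutation p = 0.00917, adjusted p = 0.0495). Over the 44 mice without acinar-rich libraries r was 0.64 for Scnn1g and 0.53 for Hsd11b2 (adjusted permutation p = 0.00486 for both) and 0.42 for Scnn1a (adjusted permutation p = 0.155). Between groups, 1, 3 and 1 of 7 tested distal Hox genes were higher than vehicle at 10, 30 and 90 mpk and none was lower, with median log2 fold changes of 0.19, 0.53 and 0.28, where Scnn1g had -0.69, -1.50 and -1.42. In vehicle against sham 1 of 7 was higher and none lower, at a median of -0.09, where Scnn1g had -0.81. Neutrophil markers went against Nr3c2 (r = -0.58, rho = -0.44, permutation p = 0.00343, adjusted p = 0.0247), with r = -0.79 in vehicle mice and r = 0.23 at 30 mpk. Without the acinar-rich libraries the relation did not pass the test, at r = -0.32 over 44 mice (adjusted permutation p = 0.259) and r = -0.41 in the 6 other vehicle mice. Surface colonocyte markers went with Nr3c2 (r = 0.49, rho = 0.48, permutation p = 0.00366, adjusted p = 0.0247), and at r = 0.40 over the 44 mice (adjusted permutation p = 0.118). Scnn1g at 30 mpk stayed called lower than vehicle in 12 of 14 alternatives, which include a fit with the distal Hox level as a covariate. Its call was lost in the rank-sum test and without the acinar-rich libraries. Beyond that covariate fit, the part of these markers in the differences between groups was not tested.

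**Figure D4:**
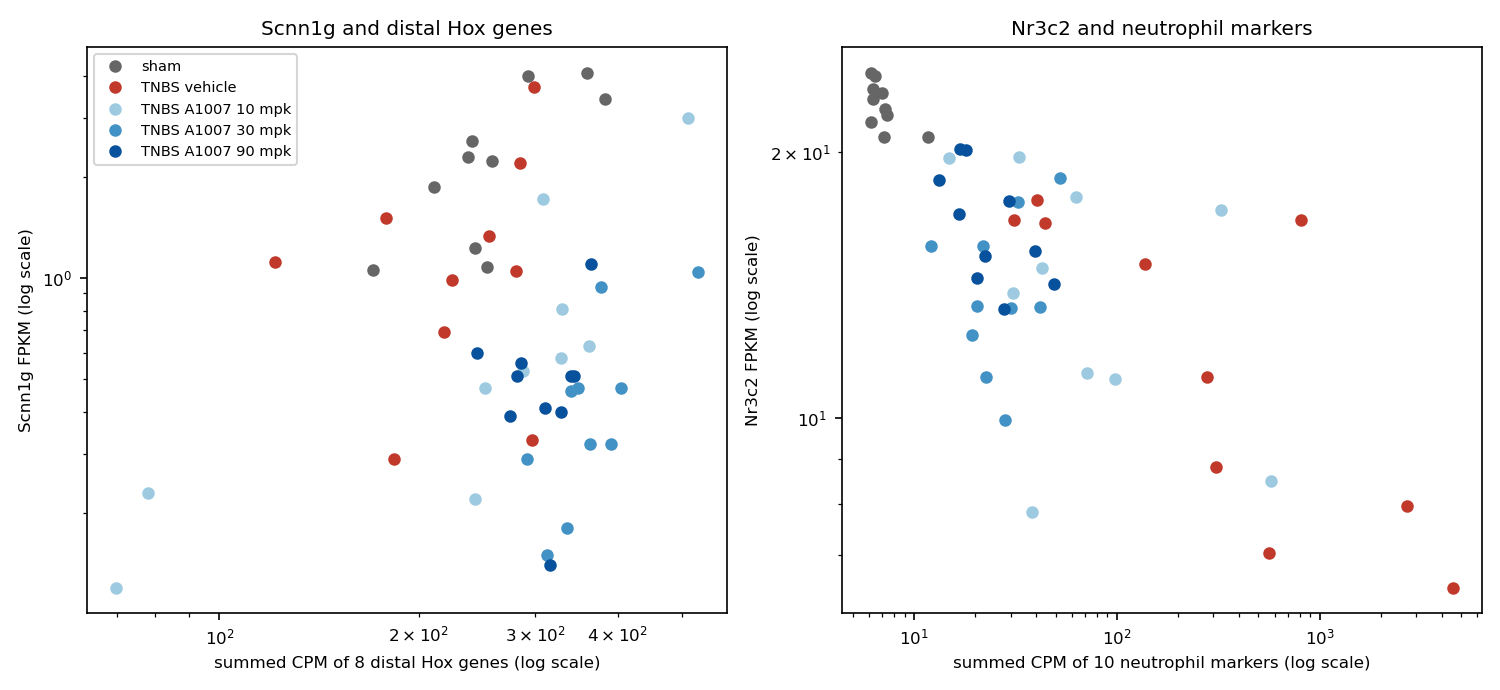
Scnn1g against the summed level of distal Hox genes and Nr3c2 against the summed level of neutrophil markers (CPM), both axes logarithmic, with 1 point per mouse coloured by group. Scnn1g is higher where distal Hox genes are higher within sham, and the Nr3c2 points of sham mice lie above all others at the lowest neutrophil levels.

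Marker lists gave these values between groups. All 10 neutrophil markers were higher in vehicle than in sham (median log2 fold change 6.22), and 6, 10 and 10 of them were lower than vehicle at 10, 30 and 90 mpk. Their summed level ran from 6.132 to 11.75 CPM in sham, 31.3 to 4543 in vehicle, 14.85 to 578.8 at 10 mpk, 12.14 to 52.47 at 30 mpk and 13.38 to 48.92 at 90 mpk, and of the 10 only S100a8, Cxcr2, Trem1 and Clec4e were at 0 in any mouse (1 to 6 mice). Surface colonocyte markers had 4 of 13 genes lower in vehicle than in sham (median -0.29), and 3, 8 and 8 of 13 lower and 0, 2 and 1 higher than sham at 10, 30 and 90 mpk. Slc20a1 (-0.89), Muc3 (-0.39) and Cdhr5 (-0.37) were among the vehicle falls. Of the 10 markers shared by all epithelial cells only Vil1 was lower in vehicle (log2 fold change -0.29, adjusted p = 0.00928), and the list's median was -0.06. Of these 10 markers 5 were higher than vehicle at 30 mpk (median 0.21), where 3 of the 9 genes were called lower, and none was called at 10 or 90 mpk. Against sham 0, 7 and 1 were higher and 1, 2 and 3 lower at 10, 30 and 90 mpk. The part of the epithelial markers in the results at 30 mpk was not tested. Red blood cell genes, squamous keratins and smooth muscle genes, other tissues a colon sample can hold, had 1 of 5, 4 of 5 and 0 of 8 tested genes higher in vehicle than in sham and none lower. At the doses 7 of 8 smooth muscle genes were higher than sham. Acinar genes were higher than sham in every TNBS group, 14 of 14 tested genes in vehicle and at 30 and 90 mpk and 13 of 14 at 10 mpk. In vehicle against sham without the acinar-rich libraries, 10 of 10 neutrophil markers were higher (median 4.36), 8 of 12 endothelial markers were higher, 6 of 13 surface colonocyte markers were lower, 1 of 10 epithelial markers was lower, 1 of 7 glial markers was higher and 2 were lower, and none of 14 acinar genes or of 5 red blood cell genes was called. Neutrophil markers then were lower than vehicle in 0, 9 and 8 of 10 at 10, 30 and 90 mpk, and 4 of 10 epithelial markers were higher than vehicle at 30 mpk.

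Among partners of the sodium channel, some differed between vehicle and sham and some between A1007 and vehicle. Of 13 genes that process or turn over the channel, 2 were higher and 4 lower in vehicle than in sham (median log2 fold change -0.12). Against vehicle 2, 3 and 2 were higher and 0, 4 and 1 lower at 10, 30 and 90 mpk, against sham 1, 3 and 1 were higher and 5, 7 and 8 lower, and none was called between doses in edgeR. Usp2, a deubiquitinase known to act on the channel, had a mean of 8.452 FPKM in sham and 2.922 in vehicle (log2 fold change -1.52, adjusted p = 1.76e-08). It rose against vehicle by 0.48, 0.63 and 0.65 at 10, 30 and 90 mpk (adjusted p = 0.0299, 0.000611 and 0.000684). Spint1, an inhibitor of channel-cleaving proteases, was lower in vehicle (-0.42, adjusted p = 0.000464) and higher than vehicle at every dose (0.27, 0.41 and 0.32). Stx1a, a membrane fusion protein, was higher in vehicle than in sham (0.52, adjusted p = 0.000418) and called at no dose against vehicle. Without the acinar-rich libraries Usp2 stayed called against vehicle at 30 and 90 mpk (0.64 and 0.65) and Spint1 at 30 mpk (0.34). The calls of Usp2 at 10 mpk (adjusted p = 0.102) and of Spint1 at 10 and 90 mpk (adjusted p = 0.218 and 0.0633) were then lost, and at 10 mpk they were also lost in 5 and 13 of 20 fits that left out 1 library.

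The sodium pump and the potassium channels that accompany it were lower after TNBS, with 6 of 11 genes lower and 1 higher in vehicle than in sham (median -0.51). Atp1b1, the beta subunit of the pump, averaged 387.2 against 596.2 FPKM (log2 fold change -0.62, adjusted p = 9.99e-06) and was called at no dose against vehicle. The potassium channel genes Kcnq1 (-0.51) and Kcne3 (-0.79) were lower in vehicle and rose against it at 30 mpk, by 0.33 and 0.61 (adjusted p = 0.00636 and 0.000276), and at 90 mpk, by 0.36 and 0.46. Kcne3 lost its call at 90 mpk without the acinar-rich libraries (0.29, adjusted p = 0.169). At 10, 30 and 90 mpk 7 of 11 genes of the list were lower than sham, and 1, 3 and 2 were higher.

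Electroneutral sodium uptake, the parallel route that pairs sodium with chloride, had 6 of 8 tested genes lower and none higher in vehicle (median -0.84). Slc26a3, its chloride exchanger, had a log2 fold change of -1.71 (adjusted p = 2.83e-06) and Car4, a surface carbonic anhydrase, -1.50 (adjusted p = 1.88e-05), and neither was called at any dose against vehicle. Car2, a cytosolic carbonic anhydrase, was lower in vehicle (-0.93, adjusted p = 5.84e-05) and higher than vehicle at 10, 30 and 90 mpk (0.43, 0.90 and 0.59). Slc9a3r2, a scaffold of the sodium exchanger, did not pass the test after TNBS (0.03) and was higher than vehicle at each dose (0.53, 0.42 and 0.50). Against vehicle 2 of 8 genes of the list were higher at each dose, and 1 was lower, at 30 mpk. Against sham 6, 6 and 7 of 8 were lower and 1 higher at 10, 30 and 90 mpk. When the acinar-rich libraries were left out, Car2 lost its calls against vehicle at 10 mpk (0.19, adjusted p = 0.403) and 90 mpk (0.37, adjusted p = 0.0664) and kept that at 30 mpk (0.68), Slc9a3r2 kept all 3, and Car4 was called at 30 mpk (0.60, adjusted p = 0.0401). Car2 at 10 mpk also lost its call in 14 of 20 fits that left out 1 library.

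Other aquaporins were scarce. Of 9 genes 3 had enough counts to be tested, and the list's summed level had medians between 18.27 and 24.56 CPM in the 5 groups. Aqp9, a glycerol pore also found in neutrophils, had a mean of 0.037 FPKM in sham and 0.241 in vehicle (log2 fold change 2.64, adjusted p = 7.39e-05) and fell at 30 mpk against vehicle by 1.05 (adjusted p = 0.0151). Aqp11, a pore of intracellular membranes, was lower in vehicle than in sham (-0.48, adjusted p = 0.025). The calls of Aqp9 at 30 mpk (-0.94, adjusted p = 0.0666) and of Aqp11 (-0.35, adjusted p = 0.0647) were lost without the acinar-rich libraries, as they were without vehicle replicate 8 for Aqp9 (-0.72) and sham replicate 8 for Aqp11 (-0.43).

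The kinases near Sgk1 were mostly lower where they were called against sham. Of 11 genes, the other SGK kinases and the WNK pathway, 1 was higher and 2 were lower in vehicle than in sham. Against sham 2, 0 and 1 were higher and 4, 6 and 6 lower at 10, 30 and 90 mpk, and against vehicle 0, 0 and 2 were higher and 0, 3 and 1 lower. The list's median log2 fold change against sham lay between -0.21 and -0.13 in the 4 TNBS groups. Wnk4, a kinase that restrains salt transport, was lower (-0.63, adjusted p = 9.53e-05) and was higher than vehicle at 90 mpk (0.39, adjusted p = 0.00468). Wnk1 was higher in vehicle (0.33, adjusted p = 0.00181) and lower than vehicle at 30 and 90 mpk (-0.31 and -0.22). The kinase gene Oxsr1 had -0.12 in vehicle (adjusted p = 0.0426), and Cul3, of the ligase that removes WNK kinases, had -0.22 at 30 mpk against vehicle (adjusted p = 0.0336), calls that were lost in 11 and 5 of 20 fits that left out 1 library. Leaving out the acinar-rich libraries ended the calls at 90 mpk against vehicle of Wnk4 (0.22, adjusted p = 0.151) and Wnk1 (-0.17, adjusted p = 0.0914, and -0.15 without vehicle replicate 5 alone).

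Steroid handling outside the 9 genes split by direction. Of 12 genes 9 were tested, with 1 higher and 3 lower in vehicle than in sham. Hsd11b1, which regenerates active corticosterone and so does the reverse of Hsd11b2, had a mean of 1.815 FPKM in sham and 6.138 in vehicle (log2 fold change 1.80, adjusted p = 0.000471) and fell against vehicle by 1.30 at 30 mpk and 1.52 at 90 mpk (adjusted p = 0.000761 and 0.000241). Nr5a2, a regulator of steroid synthesis in gut crypts, was lower in vehicle (-0.80, adjusted p = 1.37e-05), as were the glucocorticoid receptor gene Nr3c1 (-0.39, adjusted p = 0.0142) and the receptor chaperone Fkbp4 (-0.28, adjusted p = 0.0258). Fkbp4 rose at each dose against vehicle, by 0.37, 0.60 and 0.39. With the acinar-rich libraries left out, Hsd11b1 was 0.93 above sham in vehicle mice (adjusted p = 0.00597), and its calls against vehicle were lost at 30 mpk (-0.50, adjusted p = 0.103) and 90 mpk (-0.66, adjusted p = 0.0759). Nr3c1 then was -0.20 in vehicle against sham (adjusted p = 0.0376), and Fkbp4 kept its call against vehicle at 30 mpk (0.51) but not at 10 and 90 mpk (adjusted p = 0.126 and 0.0512). Fkbp4 also lost its call at 10 mpk without 10 mpk replicate 9 (0.28) and in vehicle against sham without sham replicate 7 (-0.25).

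Genes known to respond to steroids were called in both directions. Of 12 genes, 1 was higher and 4 lower in vehicle than in sham (median -0.08). The numbers higher and lower than vehicle were 1 and 0 at 10 mpk, 1 and 2 at 30 mpk and 1 and 4 at 90 mpk, with medians of 0.18, 0.12 and -0.42. Against sham they were 1 and 2 at 10 mpk (median 0.05), 3 and 4 at 30 mpk (-0.16) and 1 and 7 at 90 mpk (-0.38), where Sgk1 was lower at each dose. In the fits without acinar-rich libraries 0 were higher and 6 lower in vehicle than in sham, and against vehicle 0, 5 and 2 were higher and none lower at 10, 30 and 90 mpk. The transcription factor Klf9 (-0.56), the clock gene Per1 (-1.24), the sulfotransferase Sult1a1 (-0.65) and Ndrg2 (-0.23) were lower in vehicle than in sham. Of these Ndrg2 rose against vehicle at 30 and 90 mpk, by 0.53 and 0.36. Mt2, a metallothionein, ran from 13.57 to 710.6 FPKM in vehicle mice (median 49.98) and from 18.35 to 118.68 in sham mice (median 41.08), and against vehicle it fell by 2.07 at 30 mpk and 2.38 at 90 mpk (adjusted p = 0.00382 and 0.00202). Without vehicle replicate 9 these values were -1.18 and -1.49, and without the acinar-rich libraries they were 0.38 and 0.05 and not called. Per1, one of the genes most like Sgk1 between mice, had log2 fold changes of 0.25, 0.36 and 0.49 against vehicle at 10, 30 and 90 mpk that did not pass the test, and without the acinar-rich libraries it was called higher than vehicle at 30 and 90 mpk (0.95 and 1.03, adjusted p = 0.0024 and 0.0065).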

How the data were processed

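RNA from the colon of 50 mice was sequenced and the table holds 2 units. The raw counts of reads per gene are the authors' deposited values, and the FPKM values are the authors' own scaling of them, as deposited (99.997% of values with 500 or more counts were within 1% of count per exon length and library total). The submitters' processing notes name the build GRCm39 and, without their order, HTSeq 0.6.1, HISAT2 2.2.1, cutadapt 1.9.1 and DESeq2, and the strand setting is not given in the sources used here. Library totals ran from 14373337 to 20446967 counts.

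Counts were tested with edgeR 4.0.16 in R 4.3.3 (quasi-likelihood test, TMM scaling, filterByExpr with a count minimum of 10, Benjamini-Hochberg adjusted p under 0.05 over 17928 genes), after the script was tested on simulated data. Comparisons with sham were fitted on the 20 mice of each pair of groups, and the other comparisons on the 40 TNBS mice. The labels number the samples of a group without saying that each came from another mouse. Each was taken as 1 mouse, and p-values measure the spread between these samples. Levels are deposited FPKM values with SD over 10 mice. Alternatives used DESeq2 1.42.0, limma 3.58.1, other scalings, pseudocounts and filters, a rank-sum test, and libraries left out. Relations between mice used numpy 2.4.6 and scipy 1.17.1.

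The 9 genes and the 17 gene lists (176 genes, 158 tested) were chosen with earlier results of these data known. The text gives all 9 genes in the comparisons with sham and with vehicle, and between doses their range and the genes at its ends. From the lists it draws on up to 3 genes called in vehicle against sham and up to 2 called at 30 mpk against vehicle, by smallest p, and, for each of the 9, the 3 genes with the highest r. Promoter sequences are from RefSeq on GRCm38.p6, another build than that of the counts.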

Additional observations from a re-analysis of the deposited data

Results flagged for a closer look

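Of the 45 sets of 10 mice formed by 9 genes and 5 groups, 7 held a mouse whose gap to the next mouse, as a share of the group's range, exceeded Dixon's 95% limit. Chance gives such a mouse in about 5% of sets. For Sgk1 the gap was 0.726 in 10 mpk replicate 5, at 56.91 FPKM, the one mouse of that group that reached the sham range, and 0.522 in sham replicate 10, at 113.45 FPKM. Scnn1b stood apart in vehicle replicate 6 (8.04 FPKM, gap 0.499), the most acinar-rich library, and in 10 mpk replicate 10 (4.13 FPKM, gap 0.542). In 90 mpk replicate 6 both Scnn1b (3.45 FPKM, gap 0.489) and Scnn1g (1.1 FPKM, gap 0.521) were far above the rest of the group. Scnn1a reached 21.53 FPKM in 30 mpk replicate 10 (gap 0.545), the mouse with the highest summed level of distal Hox genes (529.2 CPM).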

How the results depend on the processing

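Alternatives that left every library in, or left out those named in the report, kept 82 of 84 calls of single genes against sham at 10 mpk, 92 of 104 at 30 mpk, 81 of 84 at 90 mpk and 44 of 52 in vehicle mice, and against vehicle 7 of 15, 37 of 42 and 19 of 28 at 10, 30 and 90 mpk. None gave a call in the opposite direction. Apart from single libraries left out in turn, counts of the 9 genes called ran from 2 to 6 in vehicle against sham. Against sham they ran from 5 to 7, 6 to 9 and 4 to 8 at 10, 30 and 90 mpk. Against vehicle they ran from 0 to 1, 0 to 4 and 0 to 3. The larger shifts were as follows, and the cause was not tested. In vehicle against sham the count of 4 became 2 with no filter and 3 to 4 when single libraries were left out. At 10 mpk against vehicle the count of 1 became 0 under quantile normalization, sample weights, no filter, a rank-sum test, the replicate block, a fit of only those 2 groups, and without the acinar-rich or the low-Hox libraries, and it was 0 to 1 when single libraries were left out. At 30 mpk against vehicle the count of 3 became 0 under the rank-sum test and 1 without the acinar-rich libraries, and 3 to 3 when single libraries were left out. At 90 mpk against vehicle the count of 2 became 1 under log2(FPKM + 0.5), log2(FPKM + 0.1), no filter and the rank-sum test, 0 under sample weights and without the acinar-rich libraries, and 1 to 3 when single libraries were left out. At 90 mpk against sham the count of 7 became 4 in 1 fit of all 50 mice.

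Signs turned only for values that were not called. Scnn1b in vehicle against sham became -0.014 and -0.034 with limma on log2(FPKM + 0.5) and log2(FPKM + 0.1), -0.21 under quantile normalization, -0.16 under sample weights, -0.0304 in the rank-sum setting, -0.022 with the replicate block, -0.14 without the acinar-rich libraries and -0.095 to 0.27 when single libraries were left out. At 10 mpk against vehicle Nr3c2 became -0.11 without the acinar-rich libraries, and Aqp1 became -0.070 without the low-Hox ones and -0.034 to 0.18 when single libraries were left out. At 30 mpk against vehicle Hsd11b2 became 0.040 under quantile normalization, 0.078 under sample weights, 0.00982 in the rank-sum setting, 0.058 without the acinar-rich libraries and -0.16 to 0.047 when single libraries were left out. There Aqp1 became 0.076, 0.12 and 0.026 under sample weights, without the acinar-rich libraries and with a Hox covariate, Aqp4 became -0.14 and -0.19, and Nr3c2 -0.00521 and -0.094, under sample weights and without the acinar-rich libraries. At 90 mpk against vehicle Aqp4 became 0.13, 0.13 and 0.12 with limma on log2(FPKM + 0.5), log2(FPKM + 0.1) and log2(FPKM + 1), 0.18 under quantile normalization, 0.10 in the rank-sum setting, 0.066 with the replicate block and -0.12 to 0.093 when single libraries were left out, and Hsd11b2 became 0.026 under quantile normalization and 0.030 without the acinar-rich libraries. At 10 mpk against sham Hsd11b2 became 0.021 without the low-Hox libraries. Between 30 and 10 mpk Sgk1 became 0.027, 0.045, 0.033, 0.013 and 0.00619 under quantile normalization, sample weights, rank-sum, replicate block and only those 2 groups, and Nr3c2 -0.074 under sample weights. Between 90 and 10 mpk Aqp8 became 0.20, 0.21 and 0.20 with the same limma scales, 0.22 under quantile normalization, 0.069 under sample weights, 0.18 in the rank-sum setting and 0.0068 with the replicate block, and under sample weights Scnn1b became 0.049, Scnn1g 0.23 and Sgk1 0.015.

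Deviations of mice with the same replicate number had a median r of -0.013 (-0.318 to 0.556 over 100 pairs), against -0.00992 for other numbers. Such a median cannot show that the numbers carry no pairing. No scaling moved the median of all genes by over 0.1. Over all genes, alternatives called 4143 to 6228 genes in vehicle against sham, 0 to 1748, 3273 to 8339 and 1212 to 3994 at 10, 30 and 90 mpk against vehicle, and 4399 to 8537 at 90 mpk against sham. Between doses they called 82 to 4001 (30 against 10 mpk), 9 to 184 (90 against 10 mpk) and 46 to 4380 (90 against 30 mpk). Under quantile normalization 40.2% of the calls in vehicle against sham and 57.1% of those at 30 mpk against vehicle were higher, in place of 57.5% and 43%. Depth limits Scnn1g most, at 6 to 217 counts per mouse.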
